A study of Homo sapiens with 4 samples.

Results

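Messenger RNA of the MHC class I antigen presentation machinery was followed in the human myeloma line RPMI 8226. The cells had been transfected with an LNA ASO, a short antisense strand built with locked nucleic acids that pairs with a chosen RNA. The 9 genes were fixed by name: the class I heavy chains HLA-B, HLA-C, HLA-E and HLA-F, their light chain B2M, the peptide transporter subunits TAP1 and TAP2, the loading chaperone TAPBP, and NLRC5, a transcriptional activator of class I genes. They were 9 of the 78932 Ensembl genes in the count table, each symbol had 1 row, and all 9 passed the filter on low counts. One group received 5 nM of an ASO against CELF2, an RNA-binding protein of splicing and mRNA stability, and the other a control ASO of unstated dose, both for 72 hours, with 2 libraries per group. The sample fields spell the line RPMI82266. Separate cultures are not stated for the libraries of a group, and p-values therefore measure only the spread between libraries, possibly technical. The number in a library's name may mark a replicate or an oligonucleotide.

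MHC class I molecules show peptides from inside the cell to CD8+ T cells. The proteasome and cytosolic peptidases make the peptides, TAP1 and TAP2 carry them into the endoplasmic reticulum, ERAP1 and ERAP2 trim them, and tapasin (the product of TAPBP) with calreticulin and ERp57 loads them onto a heavy chain paired with beta-2-microglobulin. Promoters of class I genes carry an X box and a Y box, where NLRC5 acts together with RFX, CREB/ATF and NF-Y proteins, and many also carry sites for interferon-activated factors and for NF-kB. Plasma cells and myeloma cells normally express class I.

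The RefSeq promoter table (GRCh38.p14) matched 7 of the 9 genes, and not HLA-E or NLRC5. Their upstream stretches are shown because they separate the genes into those with an X and Y box arrangement and those without. Capitals mark GAAA or GAA followed after any 2 bases by GAAA (the full and the shorter core of the interferon-stimulated response element), an NF-kB-like site (GGG, any 2 bases, TT, any base, CC), and TNACG with ATTGG behind it after 15 to 25 bases (the X2 part of the X box and the Y box). The search ran from 250 bases before to 50 bases after each start. It covered both strands, except for TNACG with ATTGG, sought on the gene's strand only. Matches may overlap, and each stretch reads 5′ to 3′ on the gene's strand.
HLA-B, chr6:31357246-31357366, minus strand: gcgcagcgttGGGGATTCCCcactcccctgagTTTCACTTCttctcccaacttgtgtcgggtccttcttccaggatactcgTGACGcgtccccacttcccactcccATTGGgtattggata
HLA-C, chr6:31272158-31272253, minus strand: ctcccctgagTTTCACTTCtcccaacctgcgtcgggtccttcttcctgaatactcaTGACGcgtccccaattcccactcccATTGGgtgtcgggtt
HLA-F, chr6:29723268-29723366, plus strand: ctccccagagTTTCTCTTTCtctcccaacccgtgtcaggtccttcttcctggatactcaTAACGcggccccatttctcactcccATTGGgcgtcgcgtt
B2M, chr15:44711363-44711482, plus strand: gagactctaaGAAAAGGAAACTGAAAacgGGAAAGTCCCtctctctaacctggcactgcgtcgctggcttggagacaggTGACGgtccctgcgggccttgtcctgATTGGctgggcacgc
TAP1, chr6:32853757-32853848, minus strand: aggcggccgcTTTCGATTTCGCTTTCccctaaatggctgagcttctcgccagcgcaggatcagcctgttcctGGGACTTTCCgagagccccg
TAP2, chr6:32838778-32838812, minus strand: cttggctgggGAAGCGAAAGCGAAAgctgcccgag
TAPBP, chr6:33314079-33314144, minus strand: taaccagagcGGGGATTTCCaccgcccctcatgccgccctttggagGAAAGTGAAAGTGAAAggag
The X2 to Y box pair stood on the gene's strand in 4 of the 7 promoters, those of HLA-B, HLA-C, HLA-F and B2M. Counted on either strand, it stood in 1.02% of all 35116 promoters in the table. A form of the interferon element stood in all 7, against 10.6% of all promoters. The full core stood in B2M, HLA-F, TAP1, TAP2 and TAPBP, against 3.57% of all promoters, and HLA-B and HLA-C held only the shorter core. The NF-kB-like letters stood in B2M, HLA-B, TAP1 and TAPBP, against 5.68%. For TAP1, matches lay at 1 of its 2 listed starts. A match describes letters and is not a measured binding site.

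**Figure D1:**
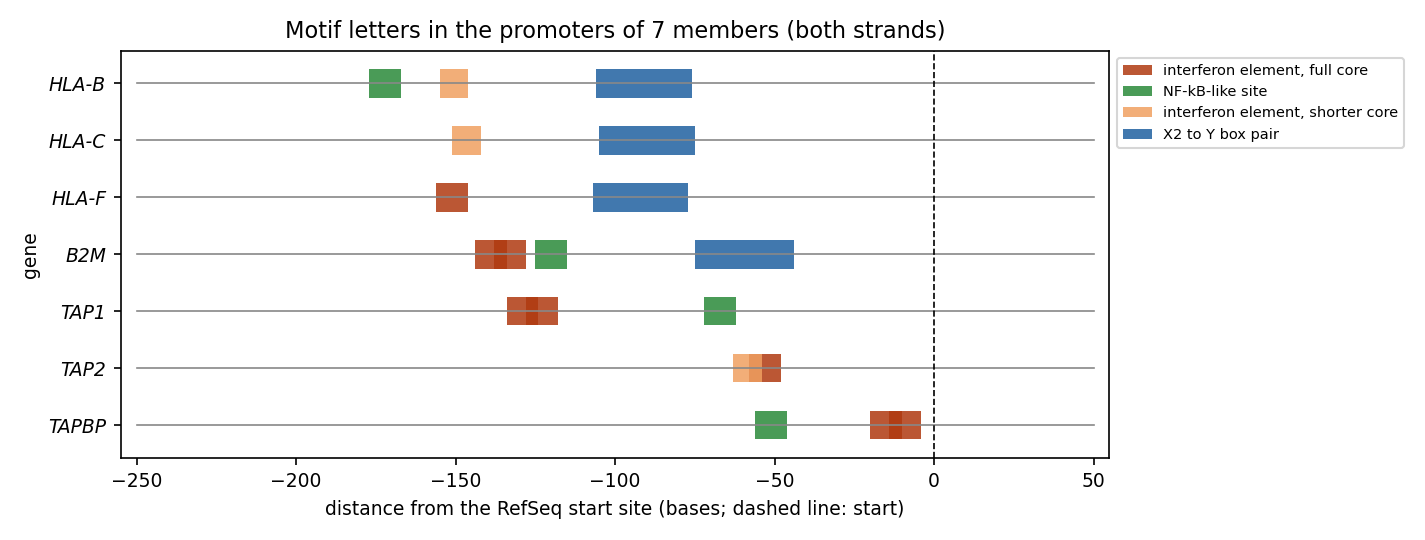
Positions of motif matches in the RefSeq promoters of 7 genes (x axis, bases from the start site, 1 row per gene, for TAP1 the start with matches). Coloured blocks are matches on either strand, except that the blue block was sought on the gene's strand only. The blue block, from the X2 core to the Y box, is present in HLA-B, HLA-C, HLA-F and B2M and in none of the 3 loading genes.

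The libraries held 23599190 to 29161298 counts. CELF2 mRNA was 128.00 and 127.89 CPM in the control libraries and 56.6 and 48.8 CPM in the CELF2 ASO libraries (CPM, the count relative to library size after TMM scaling), 2.43-fold lower (edgeR adjusted p = 2.9e-05). Changes were broad: 55.5% of the 19511 genes tested passed an adjusted p of 0.05, 27.5% higher and 27.9% lower with the CELF2 ASO. The spread within the CELF2 ASO pair was wider than within the control pair (biological coefficient of variation 13.7% and 3.58%). Markers of other cell types were measured too, and their part in the results was not tested. In every library LYZ, S100A8 and FCGR3A were at 0 counts. The 7 myeloid markers summed to 5.00 and 5.28 CPM in the control and 2.7 and 2.93 CPM in the CELF2 ASO libraries. Of these, S100A9 fell from 40 and 36 counts to 2 and 0 (edgeR adjusted p = 0.000301). CD14 fell 1.91-fold (edgeR adjusted p = 0.0137). The 8 T and NK cell markers summed to 31.4 and 29.2 against 28.1 and 20.5 CPM. Of the T and NK sum, NCAM1 alone held 29.6 and 27.2 against 25.4 and 18.3 CPM. The 8 stromal and epithelial markers summed to 127 and 124 against 93.5 and 95.7 CPM. Most of this was EPCAM, at 62.2 and 63.7 against 37.7 and 30.3 CPM, and KRT18, at 57.3 and 52.5 against 46.0 and 51.7 CPM. EPCAM and COL1A1 were called lower, 1.85-fold and 2.28-fold, and KRT8 was called higher, 2.57-fold. The 8 plasma cell markers summed to 2715 and 2867 against 3456 and 3011 CPM. Of these, IRF4, CD38 and SLAMF7 rose, and SDC1, TNFRSF17 and PRDM1 fell 2.34-fold, 2.00-fold and 1.86-fold. XBP1 and JCHAIN did not pass.

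Class I heavy chains, B2M and TAPBP rose with the CELF2 ASO, while TAP1, TAP2 and NLRC5 did not pass the test. Of the 9 genes, 6 were higher and none lower, beside 27.5% of all tested genes higher and 27.9% lower. DESeq2 called the same 6 higher, where it called 20.5% of all genes higher and 44.7% in either direction. The library groups did not overlap for 7 of the 9, beside 79.6% of all tested genes. Their median log2 fold change was 0.80, beside 0.04 for all tested genes. Summed over the 9 genes, the share of counts was 0.192% and 0.214% under the control ASO and 0.327% and 0.421% under the CELF2 ASO. In RNA from a whole culture, a change in the share of cells of a kind and a change in RNA per cell cannot be told apart.

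**Figure D2:**
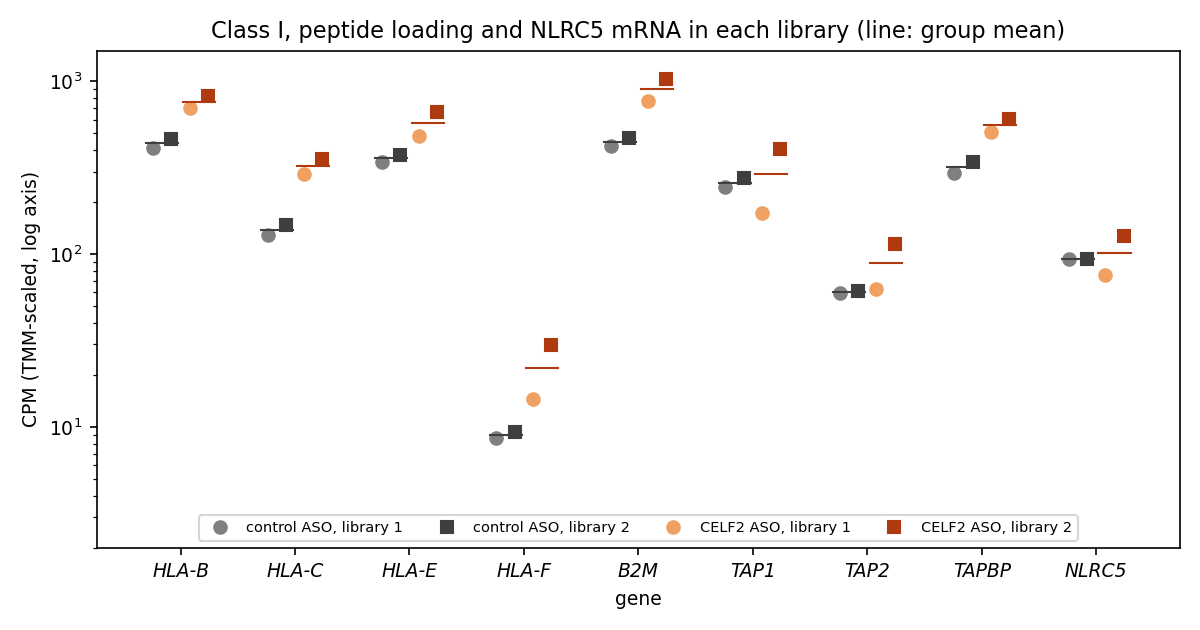
Level of each gene in each library (y axis, CPM on a log scale; circles and squares, libraries 1 and 2; grey, control ASO; orange and red, CELF2 ASO; lines, group means). HLA-B, HLA-C, HLA-E, HLA-F, B2M and TAPBP lie above both controls in both CELF2 ASO libraries, while TAP1 and NLRC5 lie below the controls in library 1 and above them in library 2.

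HLA-B and HLA-C are classical heavy chains, which present peptides to CD8+ T cells. HLA-B (ENSG00000234745, chromosome 6, 31269491 to 31357188 in GENCODE 29 on GRCh38, minus strand) had 410 and 464 CPM in control libraries 1 and 2 and 703 and 823 CPM in CELF2 ASO libraries 1 and 2. Both CELF2 ASO values lay above both control values. HLA-B rose 1.75-fold (log2 fold change 0.80, standard error 0.10, edgeR adjusted p = 0.000454). HLA-C (ENSG00000204525, chromosome 6, 31268749 to 31272130, minus strand) had 129.7 and 147 CPM in the control and 292 and 354 CPM in the CELF2 ASO libraries, again without overlap. HLA-C rose 2.34-fold (log2 fold change 1.23, standard error 0.11, edgeR adjusted p = 8.4e-05), the smallest adjusted p among the 9 genes. The ratio of HLA-B to HLA-C CPM was 3.16 in both control libraries but 2.40 and 2.33 under the CELF2 ASO.

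The non-classical heavy chains differ in use: HLA-E shows peptides from other class I leader sequences to NK cell receptors, and HLA-F is found largely inside cells and as open conformers. HLA-E (ENSG00000204592, chromosome 6, 30489467 to 30494205, plus strand) had 339 and 375 CPM in the control libraries and 479 and 667 CPM in the CELF2 ASO libraries. It rose 1.60-fold (log2 fold change 0.68, standard error 0.15, edgeR adjusted p = 0.00904), and the groups did not overlap. Without CELF2 ASO library 2 its log2 fold change was 0.41. HLA-F (ENSG00000204642, chromosome 6, 29722775 to 29738528, plus strand) was the lowest of the 9, at 8.68 and 9.33 CPM in the control and 14.4 and 29.6 CPM in the CELF2 ASO libraries. Both CELF2 ASO libraries were high, and the second was 2.05 times the first. It rose 2.44-fold, but with the largest error of the risen genes (log2 fold change 1.29, standard error 0.37, edgeR adjusted p = 0.0401). It did not pass in limma-voom (adjusted p = 0.0811) or in edgeR without a filter on low counts (adjusted p = 0.23), and the log2 fold change was 0.66 without CELF2 ASO library 2.

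B2M, the shared light chain without which most heavy chains do not reach the surface, lies outside the MHC (ENSG00000166710, chromosome 15, 44711487 to 44718877, plus strand). It had 419.9 and 469 CPM in the control and 768 and 1028 CPM in the CELF2 ASO libraries. The 2 groups did not overlap, and B2M rose 2.02-fold (log2 fold change 1.01, standard error 0.14, edgeR adjusted p = 0.000748). The 4 heavy chains summed were 2.11 and 2.12 times B2M CPM in the control libraries and 1.94 and 1.82 times B2M in the CELF2 ASO libraries. The mean of that ratio was 0.888 times its control value, without a test. Single chains moved unequally within the libraries, HLA-C to B2M going from 0.309 and 0.313 to 0.381 and 0.344 and HLA-E to B2M from 0.809 and 0.80 to 0.624 and 0.649.

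TAPBP encodes tapasin, which bridges the transporter and the empty heavy chain (ENSG00000231925, chromosome 6, 33299694 to 33314387, minus strand). It had 294 and 341 CPM in the control libraries and 510.1 and 606 CPM in the CELF2 ASO libraries. TAPBP rose 1.76-fold without overlap (log2 fold change 0.82, standard error 0.11, edgeR adjusted p = 0.000596).

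The transporter genes took different levels in the 2 CELF2 ASO libraries. TAP1 (ENSG00000168394, chromosome 6, 32845209 to 32853978, minus strand) had 243 and 274 CPM in the control libraries, 172 CPM in CELF2 ASO library 1 and 406 CPM in library 2. The first CELF2 ASO library was thus below both controls and the second above both, and the difference did not pass the test (log2 fold change 0.16, standard error 0.51, edgeR adjusted p = 0.819). TAP2 (ENSG00000204267, chromosome 6, 32821833 to 32838780, minus strand) had 59.8 and 61.5 CPM in the control and 62.6 and 114 CPM in the CELF2 ASO libraries. Its groups did not overlap, but the gap to library 1 was small (log2 fold change 0.54, standard error 0.32, edgeR adjusted p = 0.236). A fit with CELF2 ASO library 2 alone against the controls called TAP1 and TAP2 higher, with log2 fold changes of 0.66 (edgeR adjusted p = 4.65e-42) and 0.92 (edgeR adjusted p = 2.26e-53). With library 1 alone TAP1 was called lower, at -0.60 (edgeR adjusted p = 3.2e-21), and TAP2 was at 0.03 (edgeR adjusted p = 0.732). Such fits take their spread from the control pair and leave out the difference between the CELF2 ASO libraries. The ratio of TAP1 to B2M was 0.579 and 0.585 under the control ASO and lower in both CELF2 ASO libraries, at 0.224 and 0.395.

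NLRC5 (ENSG00000140853, chromosome 16, 56989485 to 57083531, plus strand) had 94.1 and 93.9 CPM in the control libraries and 75.2 and 128 CPM in CELF2 ASO libraries 1 and 2. Like TAP1, it was below both controls in the first CELF2 ASO library and above both in the second, and it did not pass (log2 fold change 0.11, standard error 0.27, edgeR adjusted p = 0.76). Library 2 alone gave 0.45 (edgeR adjusted p = 9.64e-16) and library 1 alone gave -0.34 (edgeR adjusted p = 1.24e-07), again on the spread of the control pair.

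**Figure D3:**
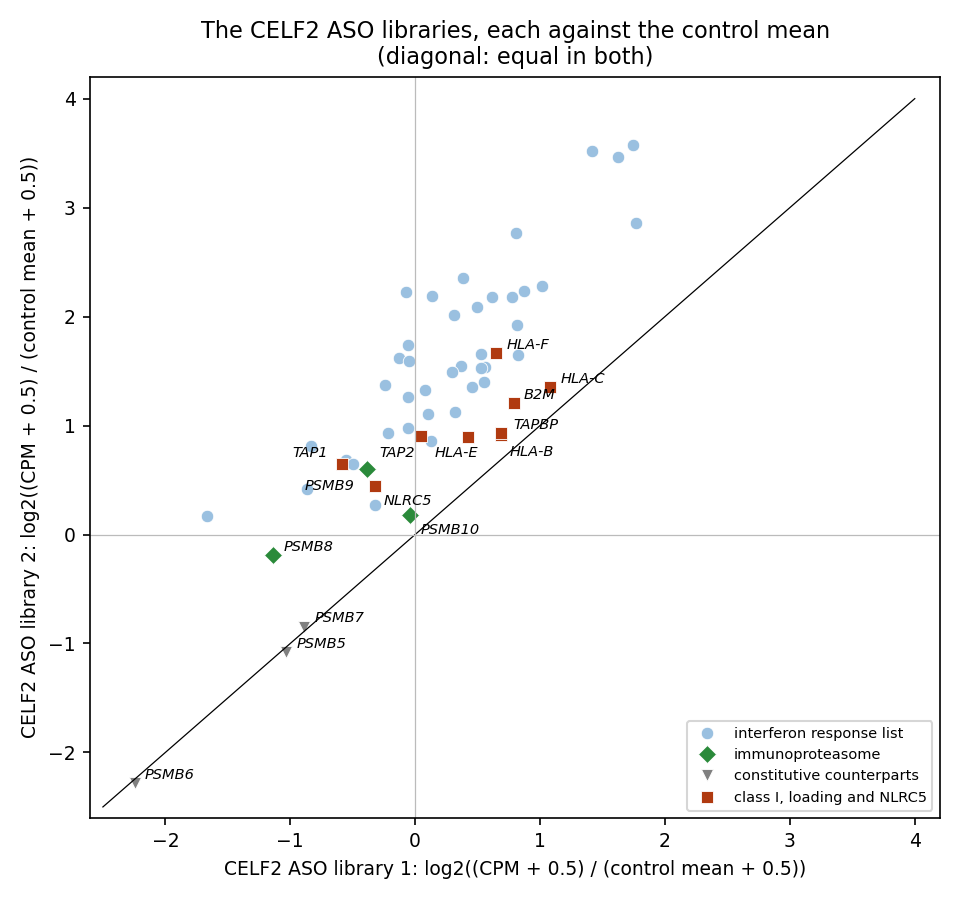
CELF2 ASO library 1 (x axis) and library 2 (y axis), each as the log2 ratio to the control mean with 0.5 CPM added (squares, the 9 genes; pale circles, 40 interferon response genes; diamonds, immunoproteasome; triangles, constitutive counterparts; diagonal, equal values). HLA-B, HLA-C and TAPBP lie near the diagonal to the right of 0, TAP1 and NLRC5 lie left of 0 and above it, and all interferon response genes lie above the diagonal.

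All 9 genes were higher in CELF2 ASO library 2 than in library 1, by ratios from 1.17 (HLA-B) to 2.36 (TAP1) with a median of 1.39. Among 10420 genes with a mean of at least 5 CPM the central 95% of that ratio ran from 0.666 to 1.46. The ratios of TAP1, HLA-F (2.05), TAP2 (1.82) and NLRC5 (1.70) lay above that range, and those of HLA-B, HLA-C (1.21), HLA-E (1.39), B2M (1.34) and TAPBP (1.19) within it. In the control pair 8 of the 9 were higher in library 2, by at most 1.16 (TAPBP), within the central range of 0.847 to 1.22. Interferon response genes, many of them antiviral effectors, moved with this difference: all 40 were higher in CELF2 ASO library 2, by a median ratio of 2.47 (range 1.5 to 6.02), and 37 of 40 were higher in control library 2. As log2 ratios to the control mean, with 0.5 CPM added, their median was 0.31 in CELF2 ASO library 1 and 1.57 in library 2, and that of the 9 genes 0.65 and 0.91. The median log2 fold change of the 40 was 1.11. Of them, 2 passed the test, ISG20 and SP100, both higher, beside 27.5% of all genes. That count depended on the fit: 14 of the 40 were called higher by DESeq2 (20.5% of all genes), 18 with library totals alone (32.3%), 15 with a block for the library number (27.7%), and 2 with RLE scaling and with limma-voom, and none lower in these 5 fits. ISG20 lost its call with no filter (edgeR adjusted p = 0.188) and without control library 1 (edgeR adjusted p = 0.312) or 2 (edgeR adjusted p = 0.315), and SP100 with no filter (edgeR adjusted p = 0.283). The part of the interferon response in the class I values was not tested.

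Levels between genes were compared as CPM per kilobase of annotated exon. In the control libraries HLA-B was highest, at 143 ± 12.6 CPM per kilobase (SD, n = 2), followed by HLA-E at 120.1 ± 8.43, B2M at 73.1 ± 5.70, TAPBP at 62.7 ± 6.54, HLA-C at 55.1 ± 4.80, TAP1 at 53.9 ± 4.59, TAP2 at 9.49 ± 0.178, NLRC5 at 7.59 ± 0.0124 and HLA-F at 2.07 ± 0.106. Within each control library HLA-C lay slightly above TAP1 (51.7 against 50.6 and 58.5 against 57.1). TAPBP lay above HLA-C in each (58.1 and 67.4). These differences were not tested. With the CELF2 ASO, HLA-B stood at 250.1 ± 27.9, HLA-E at 193 ± 44.5, B2M at 148 ± 30.2 and HLA-C at 129 ± 17.4, above TAPBP at 110.4 ± 13.4 and TAP1 at 60.2 ± 34.4. The order depends on the length used: per kilobase of the principal transcript, B2M (261 ± 20.3) lay beside HLA-B (282 ± 24.9) and above HLA-E (137 ± 9.65) in the control libraries. HLA-F was the lowest with either length.

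Reads of several of these genes can be shared with other genes. Among windows of 50 bases in the principal transcript, 41.7% of those of HLA-F, 35.8% of TAP2, 21.0% of HLA-B, 15.2% of TAP1, 6.71% of HLA-C, 6.68% of TAPBP and 5.76% of HLA-E also stood in transcripts of other genes, and none of those of B2M and NLRC5. Exon bases of TAP2 overlapped another gene on the same strand (32.3%), those of HLA-F overlapped HLA-F-AS1 and 2 other genes on the opposite strand (28.5%), 18.9% of those of HLA-B overlapped AL671883.2 or HLA-C, and 9.49% of those of TAP1 overlapped PSMB8-AS1. The counting of such reads is not given in the sources used here, so the levels of HLA-F, TAP2 and HLA-B are uncertain. B2M, which also rose, had no shared window and no overlap.

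Outside this group, antigen processing genes moved in both directions. Of 24 listed genes, all tested, 6 were higher and 9 lower, beside 27.5% and 27.9% of all tested genes. Their median log2 fold change was -0.14, beside 0.04 for all. Among 6 loading and folding genes, 3 rose, beside 27.5% of all genes: PDIA3, which encodes ERp57 of the loading complex, 1.74-fold, the chaperone gene CANX 1.40-fold and the glycoprotein sensor UGGT1 1.98-fold. CALR, which encodes calreticulin, had 1418 and 1470 CPM in the control and 1579 and 1598 CPM in the CELF2 ASO libraries, short of the threshold (edgeR adjusted p = 0.14). CALR was called higher with library totals alone (edgeR adjusted p = 0.0177). Its log2 fold change was 0.15 without CELF2 ASO library 1 and 0.11 without library 2. The tapasin relative TAPBPL (log2 fold change -0.10) and the signal peptide peptidase HM13 (0.09) did not pass either. ERAP1, the main trimming peptidase of the endoplasmic reticulum, was at 29.7 and 33.8 CPM in the control and 100.9 and 114 CPM in the CELF2 ASO libraries, without overlap. It rose 3.38-fold (log2 fold change 1.76, standard error 0.10, edgeR adjusted p = 1.27e-05). ERAP2 rose 1.34-fold, a call lost without control library 1 (edgeR adjusted p = 0.112), and the endosomal aminopeptidase LNPEP rose 2.17-fold. The cytosolic peptidase genes THOP1, BLMH and TPP2 fell 2.57-fold, 1.45-fold and 1.37-fold, and NPEPPS and LAP3 did not pass. LAP3 was called higher by DESeq2 (adjusted p = 0.0111), with library totals alone and with the block. With 1 library left out, the log2 fold change of LAP3 ran from 0.17 to 0.85. NPEPPS was called lower with RLE scaling (edgeR adjusted p = 0.0365) and with no filter. The log2 fold change of NPEPPS was -0.14 without CELF2 ASO library 1 and -0.28 without library 2.

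**Figure D4:**
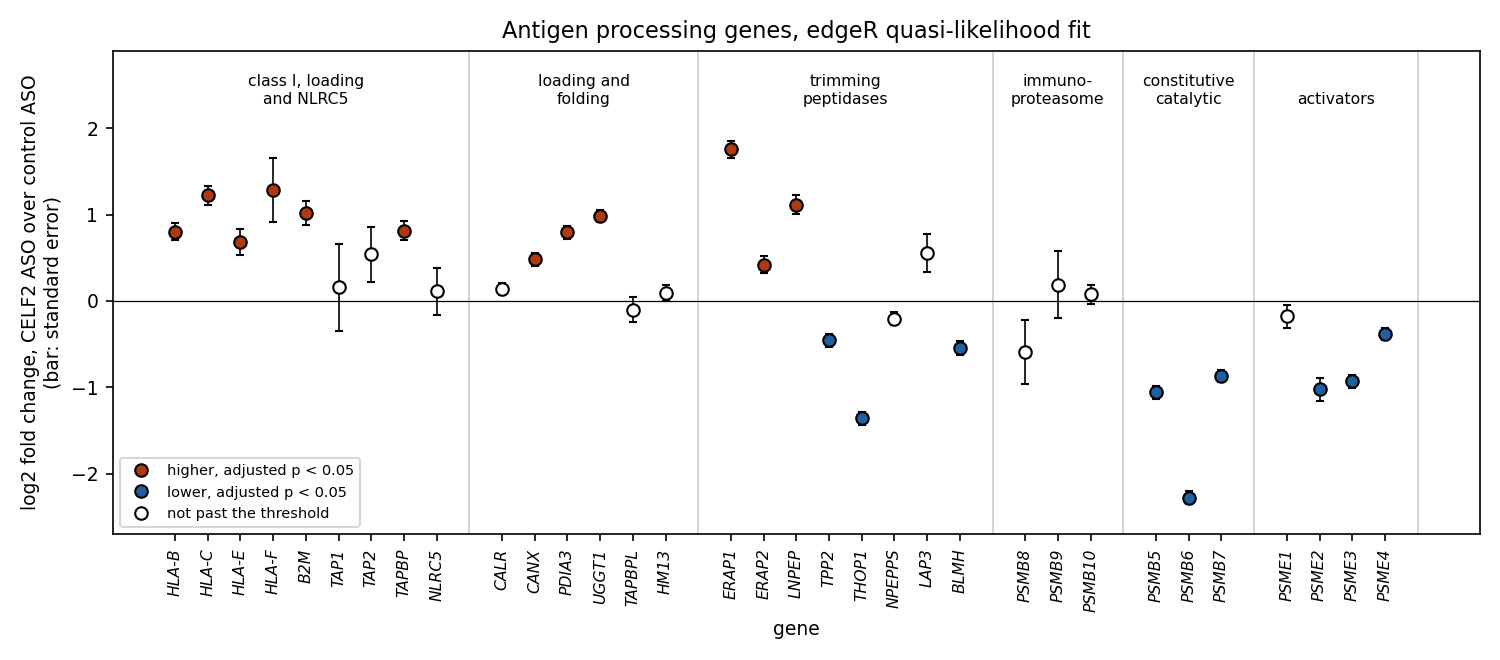
Log2 fold change of the 9 genes and of 24 other antigen processing genes (y axis; bars, standard error; filled red, higher; filled blue, lower; open, not past an adjusted p of 0.05). The endoplasmic reticulum genes PDIA3, UGGT1 and ERAP1 are higher, as are the heavy chains, and the 3 constitutive catalytic subunits are lower.

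Proteasome subunits make the peptides for class I. The constitutive catalytic subunits all fell, beside 27.9% of all tested genes called lower. PSMB6 fell 4.85-fold, PSMB5 2.09-fold and PSMB7 1.83-fold, each nearly equal in the 2 CELF2 ASO libraries (ratios 0.967 to 1.03). Of the interferon-inducible subunits that replace them, none passed, beside 55.5% of all tested genes. PSMB8 had 162 and 172 CPM in the control and 75.4 and 146 CPM in the CELF2 ASO libraries, and PSMB9 had 127 and 137 CPM against 101 and 201 CPM. The log2 fold change of PSMB8 was -0.59, or -0.18 without CELF2 ASO library 1 and -1.16 without library 2. PSMB8 lay below both controls in both CELF2 ASO libraries, and PSMB9 overlapped them. Both, neighbours of TAP1 in the MHC, were higher in CELF2 ASO library 2 than in library 1 (ratios 1.94 and 1.99). PSMB10 had 39.2 and 44.9 against 40.9 and 47.8 CPM, with overlap. Within each library the ratio of PSMB9 to PSMB6 went from 0.769 and 0.816 to 2.91 and 5.91, and that of PSMB10 to PSMB7 from 0.116 and 0.131 to 0.223 and 0.253. The ratio of PSMB8 to PSMB5 was 1.23 and 1.27 in the control and 1.16 and 2.32 in the CELF2 ASO libraries, which overlap. PSME2 and PSME3, activator subunits, fell 2.03-fold and 1.91-fold, PSME4 fell 1.31-fold and PSME1 did not pass. The share of all tested genes called lower was again 27.9%. With no filter PSME1 was called lower (edgeR adjusted p = 0.0362). Without CELF2 ASO library 1, calls among the 24 genes grew in both directions, with the spread taken from the control pair alone. PSMB9 then had a log2 fold change of 0.61, against -0.41 without library 2.

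Known regulators of class I transcription also moved both ways. Of 35 listed genes, all tested, 12 were higher and 7 lower, beside 27.5% and 27.9% of all genes, with a median log2 fold change of 0.05. Without CELF2 ASO library 2, calls among them grew in both directions, with the spread taken from the control pair alone. Among the X and Y box factors, RFXAP rose 2.02-fold from 2.97 and 3.49 CPM, NFYB 1.61-fold and NFYA 1.43-fold. NFYC fell 1.55-fold and RFXANK 1.33-fold, and RFX5, CREB1 and ATF1 did not pass. CIITA, the class II counterpart of NLRC5, had 7.11 and 6.39 CPM in the control and 18.1 and 17.4 CPM in the CELF2 ASO libraries. It rose 2.62-fold with the 2 CELF2 ASO libraries nearly equal (edgeR adjusted p = 7.8e-05).

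On the interferon axis, STAT2 rose 4.94-fold, from 60.1 and 67.1 to 228 and 400.3 CPM, but did not pass without the filter on low counts (edgeR adjusted p = 0.13). IRF1, a direct activator of class I and TAP1 promoters, had 59.2 and 61.1 CPM in the control and 92.9 and 113 CPM in the CELF2 ASO libraries. It rose 1.71-fold and was higher in both libraries (edgeR adjusted p = 0.00054). IRF9 rose 1.69-fold, the kinase JAK1 1.63-fold and the interferon gamma receptor chain IFNGR1 1.56-fold. IFNAR1 was called higher at 1.16-fold, IRF8 lower at 1.25-fold and TYK2 lower at 1.21-fold, and these calls depended on the fit. Each was lost without either control library, IFNAR1 also with RLE scaling (edgeR adjusted p = 0.0687), no filter (edgeR adjusted p = 0.282), DESeq2 (adjusted p = 0.215) and the block (edgeR adjusted p = 0.0826), and IRF8 and TYK2 also with library totals alone (edgeR adjusted p = 0.0835 and 0.177). RELA of the NF-kB pathway fell 1.51-fold, and NFKB1 had a log2 fold change of 0.00. Among subunits of the repressive complex PRC2, EED fell 1.92-fold and EZH2 1.44-fold, and SUZ12 and MTF2 did not pass (MTF2 was called lower with RLE scaling, edgeR adjusted p = 0.0443).

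Neighbouring genes in the MHC moved in both directions. Of 96 other protein-coding genes tested between the outermost of them on chromosome 6 (29722775 to 33314387), 30 were higher and 32 lower, or 31.2% and 33.3%, against 28.0% and 35.4% of all 12754 protein-coding genes tested. The median log2 fold change was 0.02 for the neighbours and -0.05 for all.

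The genes outside these lists whose pattern over the 4 libraries was nearest to the median pattern of the 9 were TCAIM, RPL3P9, TRADD, ZNF793 and MSRB2. Likeness was the root mean square difference of log2 levels, each less the control mean, over 12490 candidate genes, and it was 0.0247 to 0.0278 for these 5. TRADD, an adaptor of TNF receptor signalling, had 19.9 and 22.7 CPM in the control and 33.6 and 39.2 CPM in the CELF2 ASO libraries. All 5 were called higher. They were chosen for a pattern that rises in both CELF2 ASO libraries, so these calls are no separate result.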

How the data were processed

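The authors deposited 1 table of whole-number read counts per gene for the 4 libraries, and the values show no normalization. The submitters' processing notes list STAR 2.7.11b, featureCounts 2.0.8, Subread, Salmon 1.10.0, bcl2fastq and the build GRCh38. Which annotation and strand setting were used, and how reads shared by genes were counted, is not given in the sources used here. The labels name both poly(A) selection and ribosomal RNA removal, and reads were paired at 150 bases. Of 79029 rows, 97 spike-in or reporter rows with 1 to 3 counts per library were left out.

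The fit used edgeR 4.0.16 under R 4.3.3: filterByExpr (minimum count 10, minimum total 15), TMM scaling, and the two-sided robust quasi-likelihood test with no covariate. P-values were adjusted by Benjamini-Hochberg over all 19511 genes tested, with a threshold of 0.05. Standard errors are the absolute log2 fold change over the square root of F. Alternatives were RLE scaling, library totals, no filter, a 1 CPM filter, DESeq2 1.42.0, voom in limma 3.58.1, the label's number as a block, and leaving out each library. The pairs differed beyond sampling noise (chi-square per degree of freedom 3.38 for the control and 18.5 for the CELF2 ASO pair). The pipeline was tested on simulated data with 200 changed genes. Positions and lengths came from GENCODE 29, promoters from RefSeq. The genes and lists were chosen with earlier results of these data known. Genes named were CELF2, the 9 genes, genes of the fixed lists, and the 5 of nearest pattern. One member of the regulator list is not reported here.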

Additional observations from a re-analysis of the deposited data

How the results depend on the processing

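HLA-B, HLA-C, HLA-E, B2M and TAPBP kept their direction and their side of the threshold in all 7 alternatives that use the 4 libraries and in the 4 fits that left out 1 library. HLA-F kept its direction in all 11 and its call in 9. TAP1, TAP2 and NLRC5 passed in none of the 7. Leaving out 1 library gave log2 fold changes of -0.60 to 0.66 for TAP1, -0.34 to 0.45 for NLRC5 and 0.03 to 0.92 for TAP2. It gave 6 to 9 of the 9 genes higher and 0 to 2 lower. For the other antigen processing genes it gave 6 to 11 higher and for the regulators 5 to 11 lower. Of all genes, these 4 fits called 19.3% to 29.7% higher and 21.3% to 29.8% lower. Each of the 4 fits takes its spread from the complete pair only, so no conclusion is drawn from these counts. Library totals alone moved the median log2 fold change of all tested genes from 0.04 to 0.16, and the 6 risen genes were called with that scaling as well. The label's number as a block left the same count of the 9 genes higher, 6, and the numbers are not stated to pair the libraries (the replicate differences of the 2 groups correlated at 0.0952 over 10420 genes), so the block is a hint only. Lengths of principal transcripts, an alternative chosen after seeing the data, changed the order of levels. The sum over rows of a symbol was not run, since each had 1 row. The 2 libraries per group limit the precision of every value.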

Other observations

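Genes related to class I in structure, or recognised beside it, were also measured. Of 14 listed, 7 passed the filter on low counts. MR1, which presents vitamin metabolites to MAIT cells, had 25.8 and 29.8 CPM in the control libraries and 77.9 and 94.1 CPM in the CELF2 ASO libraries and rose 3.09-fold (edgeR adjusted p = 3.05e-05). AZGP1, a secreted protein with a class I fold, rose 8.46-fold, from 73.0 and 90.9 to 745 and 639.6 CPM (edgeR adjusted p = 5.78e-06). The NKG2D ligand gene ULBP1 summed to 3 counts under the control ASO and 163 under the CELF2 ASO. Their depth-adjusted ratio was 54.2 (95% exact interval 18.2 to 265), which covers counting error only. It passed the filter through the CELF2 ASO libraries. MICB, another NKG2D ligand, fell 1.36-fold (edgeR adjusted p = 0.0182), and MICA, ULBP3 and FCGRT did not pass.

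Of the 35 regulators, 7 concern turnover of class I at the surface, and of these 2 rose and none fell, close to the 27.5% of all genes called higher. TMEM127 rose 1.46-fold, from 74.1 and 70.5 to 93.0 and 119 CPM, and NBR1, an autophagy receptor, 1.52-fold, from 107 and 104 to 149.7 and 173 CPM. SUSD6, WWP2, SPPL3, MARCHF9 and IRGQ did not pass, but SPPL3 and IRGQ were called higher with library totals alone (edgeR adjusted p = 0.0215 and 0.0357).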
